A study of Homo sapiens with 20 samples.

Results

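Cells of the multiple myeloma line MM1.S, wild type by its label, were kept for 24 h in 10 nM dCBP-30 or in its solvent DMSO, and the late state of the treated cells was read from 3 dCBP-30 and 3 DMSO libraries, 6 of the 20 libraries of the series. The 6 libraries were taken by their labels for treatment and time. The other libraries hold the same treatments at 2 h and 6 h, each with DMSO libraries of its own, and 2 libraries of cells that got no label. In all labelled libraries 4-thiouridine (4sU) was given for 1 h before lysis, the RNA was alkylated, and the 3′ ends of transcripts were sequenced (SLAM-seq). A base T read as C marks a 4sU, so a read with such a conversion (a T>C read) mostly marks RNA made in that last hour, apart from a background given further on from cells without label, while the total reads count old and new RNA together. All cells were of 1 cell line, and the sources do not say whether the libraries of a group came from separate cultures, so the tests measure the spread between libraries only.

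CBP and p300 (genes CREBBP and EP300) are lysine acetyltransferases that bind many transcription factors, acetylate histones at enhancers and promoters, and read acetylated lysines through a bromodomain. dCBP-30 is a degrader: one end binds the bromodomain of CBP/p300 and the other binds cereblon, the substrate receptor of a ubiquitin ligase. Myeloma cells are malignant plasma cells. They depend on enhancers that hold up a small circle of transcription factors (IRF4, PRDM1, XBP1, POU2AF1, MAF, MYC), and they devote much of their mRNA to immunoglobulin and to the secretory apparatus.

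Genes are described below in functional classes taken from lists, and in 4 of these classes many members hold short promoter motifs known from other work. The windows below are from the RefSeq promoters of GRCh38 (250 bases before to 50 bases after the start of a gene) and are written 5′ to 3′ on the strand of the gene, with the motif in capitals. They show the 2 called members of each class with the largest change among those with the motif upstream of the start and enough reads, so that the class can be seen in sequence as well as in counts. The first pair holds an E2F motif (TTTCCCGC or TTTGGCGC, either strand), the second the cell cycle homology region (TTTGAA), the third an E-box (CACGTG), and the fourth a core of the interferon-stimulated response element (GAANNGAAA, either strand).
E2F2 (chr1:23531256-23531287, minus strand): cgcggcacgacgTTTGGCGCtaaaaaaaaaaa
DTL (chr1:212035728-212035747, plus strand): gcgtgacgtcagTTTGGCGC
CKS1B (chr1:154974639-154974668, plus strand): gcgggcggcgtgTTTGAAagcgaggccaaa
BUB1B (chr15:40161034-40161063, plus strand): gggaccgttaaaTTTGAAacttggcggcta
UTP20 (chr12:101280083-101280104, plus strand): cttttttccgtcCACGTGaccc
POLR1G (chr19:45406620-45406643, plus strand): cccctttggatcCACGTGgtctgc
MX1 (chr21:41420527-41420557, plus strand): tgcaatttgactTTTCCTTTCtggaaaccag
SP110 (chr2:230225721-230225753, minus strand): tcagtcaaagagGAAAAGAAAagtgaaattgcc

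The E2F motif stood in 43.2% of the 44 genes of DNA replication or known as E2F targets with a promoter in the table. The shares were 3.76% of the 9848 tested genes with one and 2.31% of all 27305 promoters. The cell cycle homology region stood in 70.7% of 41 mitosis genes (9.70% of tested genes, 15.4% of all promoters). The E-box stood in 31.9% of 47 ribosome biogenesis genes (10.4% and 7.44%), and also in 26.9% of 26 nucleotide synthesis genes and in 22.2% of 36 lysosome and autophagy genes, a class with a median above 0. The interferon motif stood in 51.6% of 31 interferon-stimulated genes (6.19% and 7.86%). It also stood in 19.7% of 61 cytosolic ribosomal protein genes, a class with a median below 0. Of all genes higher at 24 h 6.97% held it, and of all genes lower 5.35%. Among all genes lower at 24 h the shares were 6.33% for the E2F motif and 13.8% for the E-box, against 2.21% and 9.18% among all genes higher. The letters overlap with no other motif searched here except that the E-box is part of a longer lysosomal element. Some genes were listed because they are known E2F targets or interferon-stimulated, so an excess of those motifs may be built in by the lists. These shares describe letters, not binding.

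Between 13784760 and 18729086 reads per library were counted on genes at 24 h. The 9 plasma cell markers were all present under DMSO, with a summed level of 4793 to 5135 RPM. RPM are reads per 1000000 of the library's reads after TMM scaling. TMM is a trimmed mean of ratios that sets most genes level between libraries. The summed marker levels alone are per 1000000 reads of the library total, without TMM factors. B cell, myeloid and fibroblast markers summed to 18.8 RPM or less in every library. CD22 of B cells, CD3D and NKG7 of T or NK cells, S100A8 of myeloid cells and ALAS2 of erythroid cells had no read in the 6 libraries. The T cell gene CD3E rose, with 711 reads under dCBP-30 and 241 under DMSO, and HBB fell, with 81 and 388 reads. Their part in the results below was not tested.

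In total reads, 1841 genes rose and 1972 fell at 24 h, 15.0% and 16.1% of the 12272 genes tested (edgeR's quasi-likelihood test, Benjamini-Hochberg adjusted p under 0.05 and over 2-fold). At 6 h the same test called 7.47% of genes higher and 8.67% lower, and at 2 h 0.464% and 1.25%. The median log2 fold change over all genes at 24 h was 0.05. The counts depend on how the libraries are set level. Scaled by library totals alone the median of all genes was 0.58 and 3689 genes rose against 1061 that fell, so that 22.3% of the called genes were lower in place of 51.7%. Values below are on the TMM scale, and the count by library totals is given where it differs by over 1.5 times.

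The libraries also differed in how evenly their reads were spread. Under DMSO the 100 genes with most reads held 33.1%, 34.1% and 33.9% of a library, and under dCBP-30 they held 22.4%, 21.9% and 22.7%. Under DMSO 398, 363 and 367 genes were needed for 50% of the reads, and under dCBP-30 732, 756 and 719. These shares need no scaling. The largest single loss was at IGLL5, whose 3′ UTR overlaps that of the immunoglobulin lambda constant gene IGLC1, so that their reads cannot be told apart. IGLL5 took 7.06%, 6.71% and 6.81% of all reads under DMSO and 1.12%, 0.826% and 1.10% under dCBP-30. ITGB7, the integrin beta subunit by which myeloma cells adhere, took 2.04%, 2.01% and 1.97% under DMSO and 0.369%, 0.260% and 0.404% under dCBP-30. With these genes the groups were far apart, and replicate 2 of dCBP-30 was lowest for both.

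**Figure D1:**
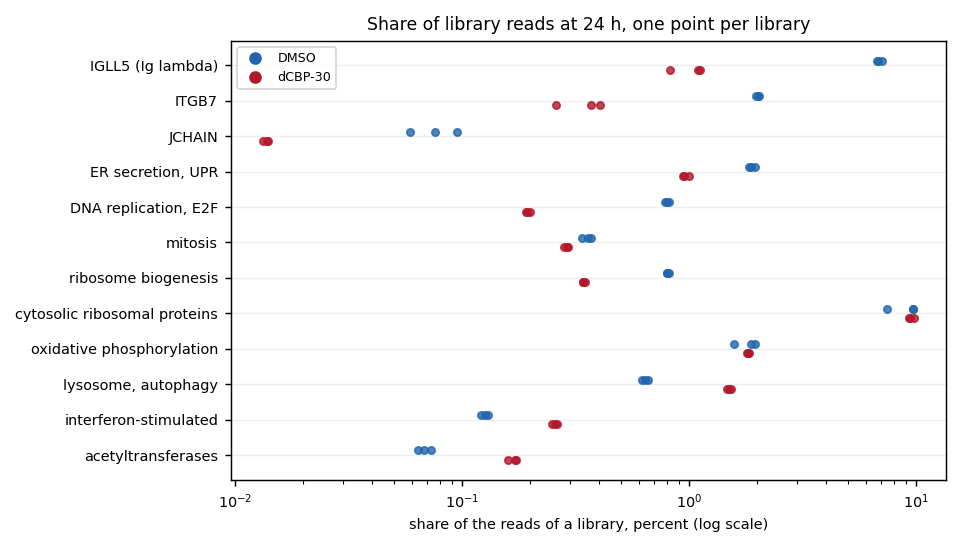
Share of all reads of a library, in percent on a log scale, held by 3 genes and 9 gene lists at 24 h, with 1 point per library. IGLL5, ITGB7 and JCHAIN, secretion, replication, mitosis and ribosome biogenesis genes sit lower in every dCBP-30 library, cytosolic ribosomal protein and oxidative phosphorylation genes overlap, and lysosome, interferon-stimulated and acetyltransferase genes sit higher in every dCBP-30 library.

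Genes of 46 functional lists are described next by their counts and medians, beside the 15.0% higher and 16.1% lower among all genes tested. Counts by library totals alone stand beside 3689 higher and 1061 lower of the 12303 genes tested on that scale. The lists were chosen with results of these data known, so their counts are descriptions. Genes with more reads under DMSO at 2 h and 6 h stood lower at 24 h, as given at the end. The lists were not matched for read level. The lists of DNA replication, ribosome biogenesis, nucleotide synthesis, DNA repair, G1 cyclins, surface antigens and reported MAF targets lay at the low end, and interferon-stimulated genes, metallothioneins, lysosome genes and the zinc finger genes of chromosome 19 at the high end. The metallothionein list had only 6 tested members, of which 3 rose and 1 fell. Its median of 0.83 was 0.33 without members with an overlapping 3′ UTR or over 20% multimapping reads.

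**Figure D2:**
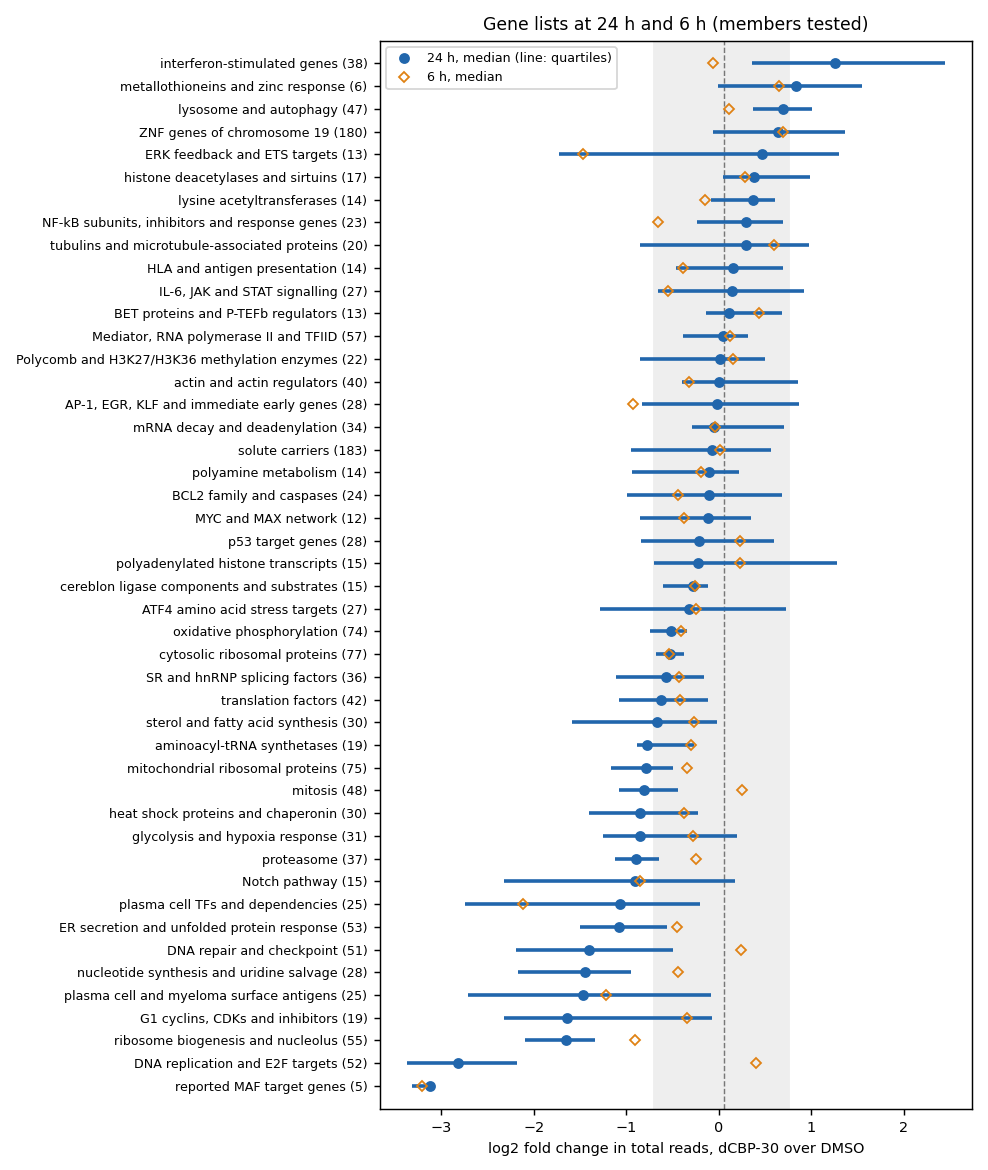
Median log2 fold change in total reads (x axis) of the tested members of each of 46 gene lists, with the number tested in brackets. Filled points are medians at 24 h with lines from the first to the last quartile, open diamonds are medians at 6 h, and the grey band and dashed line are the quartiles and median of all genes at 24 h. DNA replication genes have a median of -2.82 at 24 h and 0.40 at 6 h, the widest gap between the time points in the plot.

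The transcription factors and kinases on which myeloma cells depend were lower in 13 of 25 members and higher in 4, with a median log2 fold change of -1.07. MYC, the transcription factor that drives ribosome and nucleotide synthesis, stood at 0.711, 1.04 and 0.912 RPM in the 3 dCBP-30 libraries and 112, 102 and 109 RPM under DMSO. Its log2 fold change was -6.91 ± 0.29 (SE, adjusted p = 2.45e-15 in edgeR's test), and no dCBP-30 library reached 2 RPM. IRF4, the master factor of the plasma cell, had 20, 22.5 and 26.0 RPM against 309.9, 334 and 298 (log2 fold change -3.78 ± 0.13). Its 3′ UTR lies at chr6:407596-411443 on the plus strand of hg38.

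XBP1, which turns on the secretory apparatus, had 72.7, 56.0 and 88.8 RPM against 1076, 1180.4 and 1066 (-3.93 ± 0.14). BHLHA15, a helix-loop-helix factor of secretory cells, had 2.90, 2.86 and 2.95 RPM against 101, 96.2 and 88.4 (-5.03 ± 0.17). POU2AF1, the B cell coactivator of octamer factors, had 27.4, 26.8 and 18.8 RPM against 293, 255 and 280.3 (-3.5 ± 0.18). In all of these factors the groups did not overlap.

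PRDM1, IKZF3, PIM2 and MAF had a higher log2 fold change at 24 h than at 6 h, by 1.51, 1.95, 2.51 and 1.83 in the interaction test, all called. PRDM1, the repressor that fixes the plasma cell fate, had 62.1, 43.0 and 84.8 RPM against 452, 390.0 and 426 at 24 h, with a log2 fold change of -2.74 after -4.25 at 6 h. PIM2, a survival kinase, had 905, 612 and 1099 RPM against 2427, 2324 and 2339 (-1.44 after -3.94). In both genes the dCBP-30 libraries still lay below all DMSO libraries. By library totals alone PIM2 no longer passed 2-fold (-0.92). MAF, which drives CCND2, ITGB7 and CCR1 in this subtype of myeloma, was at -2.86 after -4.69, and IKZF3, a cereblon substrate, at -0.87 after -2.82, short of the 2-fold threshold at 24 h. Over the list, 10 of 25 members had a higher change at 24 h than at 6 h by the interaction test and 2 a lower one, against 8.45% and 9.70% of all genes. MYB, a progenitor factor, was lower at 24 h (-7.06) than at 6 h (-2.37) by that test, with 0.109, 1.21 and 0 RPM against 56.9, 65.5 and 55.5.

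All 5 tested genes reported as MAF targets fell, with a median of -3.12 (-3.20 at 6 h). CCND2, a G1 cyclin, had 162, 159 and 195 RPM against 1594, 1508 and 1375 (-3.11 ± 0.12). ITGB7 had 2843, 1968 and 3120.5 RPM against 21791, 22428 and 22067 (-3.06 ± 0.13). CCND2 was already at -2.77 by 6 h while ITGB7 was at -0.46 then. The chemokine receptor CCR1 had 28.1, 23.2 and 29.4 RPM against 363, 437 and 401, with a log2 fold change of -3.89 after -6.51 at 6 h.

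The plasma cell surface and the secretory route were low. Of 25 tested surface antigens 15 fell and 1 rose (median -1.47). TNFRSF17, the receptor BCMA, had 5.69, 3.46 and 3.59 RPM against 99.1, 151 and 168 (-5.03 ± 0.34). SDC1, the heparan sulphate carrier CD138, had 152, 132 and 159 RPM against 1245, 1139.5 and 1185 (-3.01 ± 0.12). GPRC5D, an orphan receptor used as a myeloma target, had 12.2, 9.94 and 11.7 RPM against 84.2, 128 and 135 (-3.36 ± 0.18). The groups did not overlap in any of these, and replicate 1 of DMSO was the lowest DMSO library for TNFRSF17 and GPRC5D. CD38 fell by 1.74 and SLAMF7 by 1.39 on the log2 scale. By library totals alone SLAMF7 no longer passed 2-fold (-0.87). On the TMM scale all 9 plasma cell markers fell. Their summed level was 719 to 931 RPM under dCBP-30, here again without TMM factors. In bulk RNA, fewer cells with a transcript and less of it in each cell cannot be told apart.

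Of 53 genes of secretion in the endoplasmic reticulum (ER) and of the unfolded protein response, 28 fell and 1 rose (median -1.07). Scaled by library totals 13 fell and the median was -0.55. MZB1, a chaperone of immunoglobulin assembly in plasma cells, had 88.0, 77.2 and 90.2 RPM against 1389, 1354 and 1368 (-4.01 ± 0.11) and had been at -0.61 at 6 h. TXNDC5, an ER disulphide isomerase, fell by 4.08 on the log2 scale, but its 3′ UTR is shared with the readthrough gene BLOC1S5-TXNDC5. SEC61A1, the pore of the ER translocon, had 127, 126 and 128 RPM against 318, 327 and 322 (-1.34) and HSPA5, the chaperone BiP, 422, 408 and 431 RPM against 990.3, 1006 and 969.6 (-1.23). Both lost the 2-fold call by library totals alone (-0.82 and -0.71). DDIT3, the stress factor CHOP, was the member that rose, from 2.27, 3.10 and 3.70 RPM under DMSO to 11.9, 16.1 and 10.1 under dCBP-30 (2.07 ± 0.46). JCHAIN, which joins IgA and IgM chains and was picked here after its values were seen, had 105 ± 3.80 RPM against 845 ± 215 (SD, n = 3), a log2 fold change of -3.01 after -1.03 at 6 h.

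**Figure D3:**
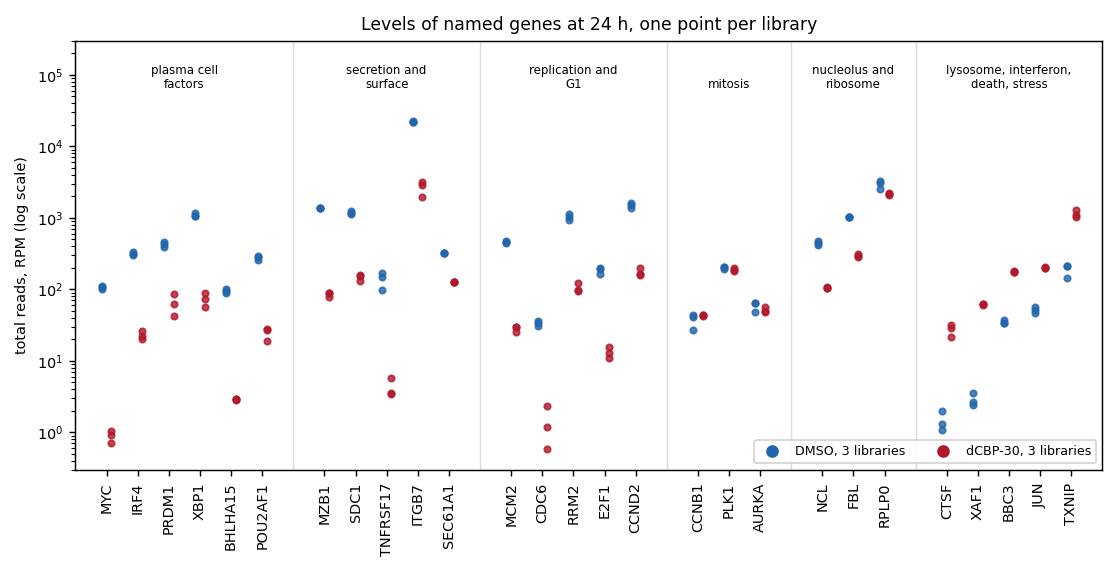
Level of 27 named genes at 24 h in RPM of total reads (log scale), with 1 point per library, blue for DMSO and red for dCBP-30. Plasma cell, secretion, replication, nucleolar and ribosome genes lie lower in all dCBP-30 libraries, the mitotic genes CCNB1, PLK1 and AURKA overlap or touch, and CTSF, XAF1, BBC3, JUN and TXNIP lie higher in all dCBP-30 libraries.

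Replication genes had the lowest median of the 46 lists apart from the 5 MAF targets. Of 52 genes for DNA replication or known as E2F targets 51 fell and none rose, with a median of -2.82. At 6 h their median was 0.40, with 2 higher and 1 lower. By the interaction test 50 of 52 had a lower change at 24 h than at 6 h. The remaining member, POLE2, named here after its value was seen, had a log2 fold change of -1.84 ± 0.89 with an adjusted p of 0.0803. The class held 0.194% ± 0.00418 of library reads under dCBP-30 against 0.801% ± 0.0139 under DMSO (SD, n = 3), and by library totals alone 48 of 52 fell.

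MCM2, a subunit of the replicative helicase, had 29.5, 24.9 and 29.6 RPM against 475, 445 and 459 (-4.04 ± 0.12, after 0.65 at 6 h). Its 3′ UTR lies at chr3:127621771-127622436 on the plus strand. CDC6, which loads that helicase on origins, had 1.20, 2.36 and 0.590 RPM against 30.3, 35.5 and 33.4 (-4.57 ± 0.25). RRM2, the ribonucleotide reductase subunit made in S phase, had 94.0, 97.3 and 121 RPM against 929.8, 1119.5 and 1025 (-3.30 ± 0.12, after 0.83 at 6 h). The groups did not overlap for the helicase, the loader or the reductase, and CDC6 had under 3 RPM in every dCBP-30 library. PCNA, the sliding clamp, fell by 2.75.

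The E2F factors fell as well. E2F1 had 13, 10.8 and 15.7 RPM against 198, 165 and 195 (-3.82 ± 0.17), and E2F2, whose own promoter holds the motif shown above, had 9.79, 5.49 and 8.64 RPM against 299, 258 and 277 (-5.12 ± 0.18). DTL, the substrate receptor that clears licensing factors in S phase, had 2.35, 3.24 and 1.39 RPM against 69.3, 80.1 and 84.0 (-5.06 ± 0.24). E2F1 stood at 0.48 at 6 h, short of 2-fold, while E2F2 had already fallen by 1.95.

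Of 19 G1 cyclins, CDKs and CDK inhibitors 12 fell and 1 rose (median -1.64), 2 rising by library totals alone. CCND1 had 0.985, 0.494 and 1.18 RPM against 45.6, 37.2 and 48.8 (-5.61 ± 0.36), CCNE2, the S phase cyclin, fell by 3.85, and the phosphatase CDC25A by 3.5. The inhibitor CDKN1A (p21) fell too, with 23.1, 26.0 and 21.4 RPM against 111, 111 and 109 (-2.23 ± 0.14), and the values for CDKN1B (p27) were 146, 135 and 161 RPM against 136, 168 and 155 (-0.05 ± 0.11, adjusted p = 0.686). CDK6 fell by 2.01 and CDK4 by 1.32, the latter short of 2-fold by library totals alone (-0.80). DNA repair and checkpoint genes fell in 32 of 51 members and rose in 4, or 8 by library totals alone (median -1.40, 0.24 at 6 h), with BRCA1 at -2.20.

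Genes of mitosis moved less. Of 48 tested 15 fell and none rose, 31.2% against the 16.1% of all genes, with a median of -0.81 and quartiles of -1.08 and -0.44. On library totals 2 of 48 fell. The cyclin CCNB1 had 44.4, 42.6 and 44.4 RPM against 26.7, 44.2 and 40.7 (0.23 ± 0.22, adjusted p = 0.36). The kinase PLK1 had 186, 179.5 and 198 RPM against 208, 208 and 194 (-0.11 ± 0.17, adjusted p = 0.579). For both the groups overlapped. MKI67, the proliferation antigen, fell by 1.28, BUB1B, a spindle checkpoint kinase, by 1.5, and CKS1B, a CDK partner, by 1.85, although 44.2% of the CKS1B reads mapped to several places. By library totals alone MKI67 and BUB1B were at -0.76 and -0.97.

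Ribosome biogenesis was lower in 51 of 55 tested genes and higher in none (median -1.66, after -0.90 at 6 h). On library totals 33 of 55 fell. NCL, the nucleolar protein nucleolin, had 104, 105 and 107 RPM against 447, 468 and 418 (-2.08 ± 0.11). FBL, the methyltransferase of rRNA, had 311, 282 and 289 RPM against 1035, 1015 and 1032 (-1.80 ± 0.09). NOP16, a nucleolar assembly protein, had 8.75, 13.3 and 18.1 RPM against 108, 131 and 120.5 (-3.16 ± 0.19). The libraries of a group differed little for NCL and FBL, and the groups were apart for all of these. UTP20 and POLR1G, with the E-box windows above, fell by 2.27 and 1.92.

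The ribosomal proteins themselves did not pass the 2-fold threshold in total reads: of 77 cytosolic ribosomal protein genes none was called, with a median of -0.53 (8 were called lower without DMSO replicate 1, with a median of -0.71), and 50 had an adjusted p under 0.05 in the lower direction, 64.9% against 29.9% of all genes. By library totals alone that median was 0.00 and the shares of library reads overlapped between the groups (9.41%, 9.78% and 9.30% against 7.42%, 9.69% and 9.72%). In T>C reads 72 of 76 fell, against 31.2% of all genes tested in T>C reads. Of the 77 genes 34 had over 20% multimapping reads and are uncertain. Without members with such reads or an overlapping 3′ UTR, none of 42 was called in total reads (median -0.51). The bin of genes with most reads under DMSO at 2 h and 6 h, described at the end, also had a median of -0.51. RPLP0, a stalk protein, had 2114, 2165 and 2214 RPM of total reads against 2529, 3312 and 3098 (-0.46), and in T>C reads its log2 fold change was -1.30. EEF2, the elongation factor that moves the ribosome, had 3639.6, 3846 and 3906 RPM against 3096, 2772 and 2726 (0.41) and -1.52 in T>C reads.

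Nucleotide synthesis and uridine salvage genes fell in 20 of 28 members and rose in 1 (median -1.44), 13 of them by library totals alone. CTPS1, which makes CTP, had 15.6, 17.2 and 18 RPM against 125, 129.5 and 126 (-2.90 ± 0.11), and UCK2, the kinase that traps uridine and also phosphorylates its analogues, 17.2, 18.4 and 27.1 RPM against 139, 132 and 126 (-2.66 ± 0.15). Uridine analogues such as 4sU enter the cell's nucleotides through such kinases, and the part of this loss in the T>C values was not tested. ODC1, the first enzyme of polyamine synthesis, fell by 2.61 and spermidine synthase SRM by 2.84, while over the polyamine list 3 of 14 fell and 1 rose, against 2 and 3 by library totals alone.

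Energy and protein quality genes shifted by less. Mitochondrial ribosomal proteins fell in 22 of 75 members (median -0.79), proteasome subunits in 12 of 37 (-0.89), translation factors in 13 of 42 (-0.63), SR and hnRNP splicing factors in 11 of 36 (-0.57), aminoacyl-tRNA synthetases in 4 of 19 (-0.78) and oxidative phosphorylation in 6 of 74 (-0.52), with none higher in any of these lists. Without DMSO replicate 1, 11 of 74 oxidative phosphorylation genes fell. Those counts by library totals alone were 8, 1, 4, 4, 1 and 3, with 2 translation factors and 1 splicing factor higher. Heat shock genes fell in 13 of 30 (1 higher), sterol and fatty acid genes in 12 of 30 (none higher) and glycolysis genes in 14 of 31 (5 higher). Of these 5, 8 and 7 fell by library totals alone, and 4 heat shock and 2 sterol and fatty acid genes rose. LDHA, which makes lactate, had 117, 109 and 155 RPM against 703, 806 and 757 (-2.57 ± 0.19), with 31.4% of its reads mapping to several places. FASN, the fatty acid synthase, had 96.0, 109 and 99.7 RPM against 428, 315 and 371 (-1.87 ± 0.18). SLC7A5, a carrier of large amino acids, had 11.9, 10.4 and 7.19 RPM against 88.6, 84.7 and 90.8 (-3.16 ± 0.18), and over all solute carriers 36 of 183 fell and 23 rose, a balance that turned by library totals alone, where 23 fell and 43 rose.

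Among classes with higher RNA, lysosome and autophagy genes rose in 13 of 47 members and fell in 1 (27.7% against the 15.0% of all genes), with a median of 0.69 after 0.11 at 6 h. On library totals 30 of 47 rose, where 3689 of all 12303 genes tested rose. With an adjusted p under 0.05 at any size, 33 were higher, 70.2% against 28.7% of all genes. The proteases led: CTSF had 28.8, 21.9 and 31.4 RPM against 2.01, 1.07 and 1.31 (4.22 ± 0.37), CTSL 16.6, 16.7 and 15.7 RPM against 1.62, 1.49 and 1.45 (3.42 ± 0.39) and CTSZ 79.1, 64.2 and 58.7 RPM against 13.1, 10.7 and 11.7 (2.51 ± 0.23). MAP1LC3B, which coats the autophagosome, had 103, 99.7 and 109 RPM against 49.3, 39.1 and 41.5 (1.26 ± 0.13). The cargo receptor SQSTM1 was at 0.41 ± 0.10, short of 2-fold. GLA, a galactosidase and the member that fell, was at -1.59. In T>C reads 4 of 43 rose and 3 fell, against 2.17% higher and 31.2% lower among all genes tested in T>C reads.

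Interferon-stimulated genes rose in 17 of 38 tested members and fell in 1, with a median of 1.26. Over the 26 members with a mean of at least 20 reads 10 rose and the median was 0.66, and the members below that level had few reads under DMSO. At 6 h 2 rose and 6 fell, and by the interaction test 17 of 38 had a higher change at 24 h than at 6 h and none a lower one. On library totals 27 of 40 tested rose and none fell. XAF1, a pro-death partner of XIAP, had 61.7, 62.8 and 61.3 RPM against 3.5, 2.38 and 2.61 (4.45 ± 0.36). MX1 and SP110, with the motif windows above, were at 2.45 and 1.93. The rise was not shared by all members. ISG15, the ubiquitin-like modifier, had 8.97, 8.90 and 7.83 RPM against 6.09, 4.35 and 8.05 (0.48 ± 0.36, adjusted p = 0.254), and the exonuclease ISG20 fell by 1.17 (-0.65 by library totals alone). RSAD2 had 158 reads over the 3 dCBP-30 libraries and 3 over the DMSO libraries, a ratio of 44 with a 95% counting interval of 14.8 to 215. In T>C reads 2 of 24 members rose and 2 fell, against the same 2.17% and 31.2% of all genes tested in T>C reads.

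The genes of the degrader's targets rose in total reads. EP300 had 494, 594 and 614 RPM against 204, 129.7 and 144 (1.83 ± 0.19, adjusted p = 1.82e-08 in edgeR's test), with its 3′ UTR at chr22:41178954-41180077 on the plus strand. CREBBP had 54.6, 54.4 and 46.9 RPM against 24.9, 17.1 and 24.7 (1.23 ± 0.21, adjusted p = 1.65e-05 in edgeR's test), with its 3′ UTR at chr16:3725054-3727720 on the minus strand. Every dCBP-30 library lay above every DMSO library for both genes. In T>C reads they were not called (0.94 and -0.13). Of 14 acetyltransferase genes 3 rose and 2 fell, KAT2A, the GCN5 enzyme, by 1.56 and HAT1 by 1.62. Scaled by library totals 7 of 14 rose.

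HEXIM1, the inhibitor of P-TEFb, had 176, 174 and 156 RPM against 37.8, 35.3 and 37.1 (2.20 ± 0.12, after 1.98 at 6 h). The cereblon gene CRBN, through which the degrader acts, was at 0.53 ± 0.33 (adjusted p = 0.168 in edgeR's test), not called. By library totals alone CRBN was at 1.05. Among 17 deacetylases and sirtuins 4 rose and 1 fell, and 8 rose by library totals alone. HDAC11 had 6.24, 5.55 and 6.38 RPM against 0.194, 0.596 and 0.508 (3.78) and HDAC9 0.711, 0.879 and 1.13 RPM against 3.69, 3.46 and 5.29 (-2.18). Among polyadenylated histone transcripts 4 of 15 rose and 3 fell (7 and 2 by library totals alone), with H2AC6 at 34.8, 46.4 and 40.2 RPM against 1.17, 2.62 and 1.67 (4.46 ± 0.39). Zinc finger genes of chromosome 19 rose in 45 of 180 members and fell in 10, with 85 and 2 by library totals alone and 6 lower without dCBP-30 replicate 2 (median 0.64, 0.69 at 6 h). In T>C reads 32 of 145 zinc finger genes fell and none rose (median -0.55), against 31.2% lower and 2.17% higher among all genes tested in T>C reads (median -0.69).

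Of 24 apoptosis genes 5 rose and 6 fell, 20.8% and 25% against 15.0% and 16.1% of all genes. BAX and BCL2L11 of this list were at -0.25 ± 0.21 and -0.11 ± 0.13, neither called. BBC3 (PUMA), a BH3-only killer, had 176, 174 and 178 RPM against 33.6, 33.6 and 37.3 (2.34 ± 0.17, after -0.17 at 6 h). BMF, another BH3-only protein, had 64.6, 52.6 and 70.3 RPM against 14.1, 15.6 and 17.8 (1.99 ± 0.21). APAF1, the scaffold that activates caspase-9, had 9.08, 5.60 and 7.78 RPM against 1.43, 0.954 and 1.31 (2.60 ± 0.39). All dCBP-30 libraries were above all DMSO libraries for these. The guardians BCL2 and BCL2L1 fell, with 24.9, 18.2 and 21.7 RPM against 98.7, 98.1 and 90.3 (-2.15 ± 0.16) and 104, 71.2 and 89.2 against 336, 263 and 282 (-1.74 ± 0.14). MCL1, on which plasma cells depend, was at 0.26 ± 0.10, after -1.13 at 6 h. By library totals alone 3 of 24 fell. Of 28 p53 target genes 5 rose and 5 fell, and by library totals alone 8 rose and 3 fell. ZMAT3 had 49.3, 51.2 and 49.7 RPM against 9.39, 5.01 and 4.35 (3.0), while CDKN1A fell and MDM2, the ubiquitin ligase of p53, was at -0.81 ± 0.10.

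Several signalling lists had lower medians at 6 h than at 24 h. ERK feedback and ETS target genes had a median of -1.47 at 6 h and 0.47 at 24 h, with 4 of 13 higher and 5 lower. The sign of the 24 h median was not stable: it was -0.60 with the 24 h libraries alone and -0.55 with reads summed over transcripts. DUSP6, the ERK phosphatase, had 24.9, 26.0 and 27.1 RPM against 8.36, 14.1 and 12.5 (1.16 ± 0.23, after -1.23 at 6 h), and this call was lost with reads summed over transcripts (0.98) or without DMSO replicate 1 (0.96). DUSP5, a nuclear ERK phosphatase, was lower at both times (-2.21, after -6.90). NF-kB genes rose in 3 of 23 and fell in 3 (6 and 1 by library totals alone), and 11 of 23 had a higher change at 24 h than at 6 h by the interaction test. The inhibitor NFKBIA was at 0.76 after -1.23.

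Of 28 AP-1, EGR, KLF and immediate early genes 5 rose and 5 fell, and 9 had a higher change than at 6 h. Of this list 8 rose and 2 fell by library totals alone, and 3 fell without dCBP-30 replicate 2, without DMSO replicate 1, with the replicate block or with the 24 h libraries alone. JUN had 206, 201 and 201 RPM against 50.9, 46.8 and 57.0 (1.98 ± 0.14). EGR1 had 378 reads over the dCBP-30 libraries and 2 over the DMSO libraries, a ratio of 158 with a 95% counting interval of 43.4 to 1307. In the IL-6, JAK and STAT list 7 of 27 rose and 5 fell. STAT6 had 215, 216 and 225 RPM against 39.5, 41.9 and 44.2 (2.39 ± 0.14, after -0.49 at 6 h), and the receptor IL6R fell, with 166, 122 and 142 RPM against 615, 515 and 545 (-1.96 ± 0.14). TXNIP, the thioredoxin inhibitor that also limits glucose uptake, had 1026, 1273 and 1109 RPM against 144, 209 and 213 (2.59 ± 0.21). MXD1, a partner of MAX that opposes MYC, had 27.2, 29.3 and 26.1 RPM against 4.21, 4.41 and 5.29 (2.57 ± 0.20).

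Further genes named by their size of change follow. CAPG, which caps actin filaments, had 82.7, 71.4 and 74.4 RPM against 0.518, 0.656 and 1.52 (6.43 ± 0.35). ZBTB20, a repressor of the zinc finger family, had 71.9, 78.3 and 69.6 RPM against 3.11, 4.95 and 4.06 (4.18 ± 0.26). CYP26A1, which breaks down retinoic acid, had 0.219, 0.110 and 0.376 RPM against 54.7, 44.1 and 35.6 (-7.52 ± 0.31). Genes with the largest changes were picked only where the groups did not overlap, so the lack of overlap here is no finding. In every library of the lower group CAPG and CYP26A1 had under 2 RPM. Over actin genes 8 of 40 rose and 2 fell, with none lower by library totals alone or without dCBP-30 replicate 2, and 8 had a higher change at 24 h than at 6 h.

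Seen over time, the classes took different courses. The replication and mitosis lists had medians above 0 at 6 h (0.40 and 0.25) and below 0 at 24 h. Ribosome biogenesis went from -0.90 to -1.66, ER secretion from -0.45 to -1.07, and the plasma cell factors from -2.12 to -1.07. Of the 1972 genes lower at 24 h 580 were already called lower at 6 h and 21 were called higher. Of the 1841 genes higher at 24 h 543 were called higher at 6 h and 23 lower. By the interaction test the change at 24 h was higher than at 6 h for 1037 genes (8.45%) and lower for 1190 (9.70%), and against 2 h it was higher for 1357 (11.1%) and lower for 1710 (13.9%). Among the 21, picked after their values were seen, were the replication genes CLSPN, the checkpoint mediator (1.22 at 6 h and -2.55 at 24 h), and ASF1B, a histone chaperone (1.21 and -2.06). Among the 23 were RUNX1, a haematopoietic factor (-2.93 and 2.16), and ID3, an inhibitor of E proteins (-1.09 and 1.72).

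**Figure D4:**
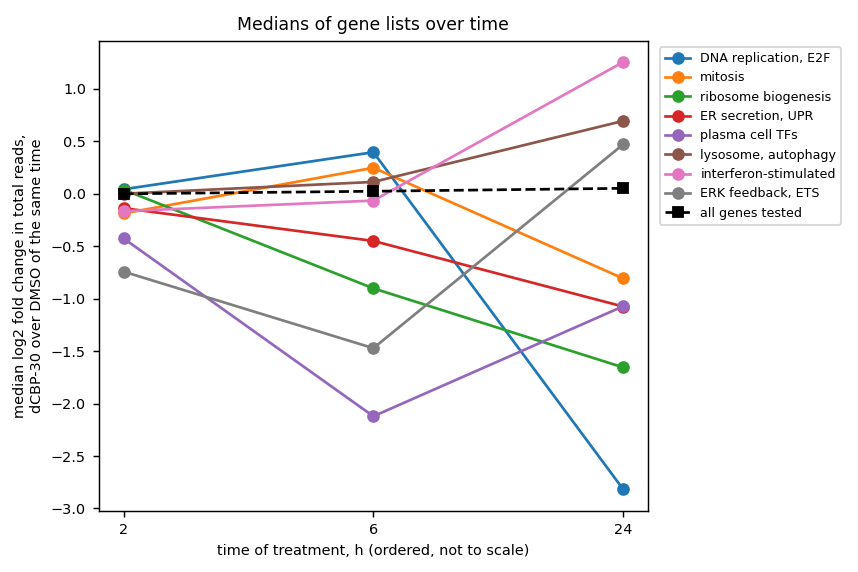
Median log2 fold change in total reads, dCBP-30 over the DMSO libraries of the same time (y axis), for 8 gene lists and for all tested genes at 2, 6 and 24 h, in order but not to scale. Replication genes go from 0.40 at 6 h to -2.82 at 24 h, ERK feedback genes from -1.47 to 0.47 (-0.60 in a fit of the 24 h libraries alone and -0.55 with reads summed over transcripts), and all genes stay near 0.

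New RNA was read beside the total. T>C reads made up 6.36%, 5.92% and 6.86% of the reads under dCBP-30 and 8.62%, 8.15% and 8.17% under DMSO, a mean of 6.38% ± 0.475 against 8.31% ± 0.266 (SD, n = 3; exact two-sided test over the permutations, p = 0.1, which 3 against 3 cannot go below). The 2 libraries without label had 0.794% and 0.809%. The ratio of conversions counted to T>C reads counted was 1.47 ± 0.0432 under dCBP-30 and 2.48 ± 0.0253 under DMSO (exact permutation test, p = 0.1). Without label it was 0.928 and 0.918. Every T>C read holds a conversion, so these low values show that the ratio is not an exact number of conversions per read. The groups did not overlap in either measure. Because the ratio of conversions to T>C reads was lower under dCBP-30, T>C reads at 24 h are given after the total reads. The part of this difference in the T>C counts was not tested.

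Scaled by the total reads, 219 genes rose in T>C reads and 3148 fell (2.17% and 31.2% of 10086 tested, median -0.69). Scaled by the T>C reads themselves 759 rose and 1513 fell (median -0.04), so 66.6% rather than 93.5% of the calls were lower. Of the 1972 genes lower in total reads 1775 were tested in T>C reads, where 1555 fell and none rose. Of the 1841 genes higher in total reads 1264 were tested, and 207 rose, 1 fell and 1056 were not called. The median of replication genes was -3.24 in T>C reads and -2.82 in total reads, and that of cytosolic ribosomal proteins was -1.52 and -0.53. JUN, STAT6, BBC3 and HEXIM1 rose on both measures (T>C log2 fold changes 1.11, 2.23, 1.91 and 1.81). IGLL5 fell by 3.24 in T>C reads.

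**Figure D5:**
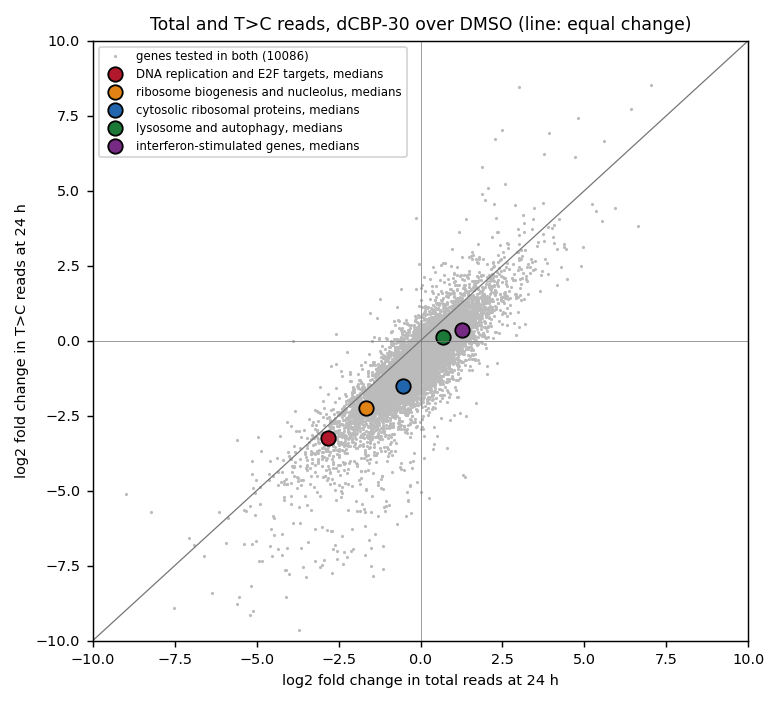
Log2 fold change at 24 h, dCBP-30 over DMSO, in total reads (x axis) and T>C reads (y axis) for the 10086 genes tested in both, with the medians of 5 gene lists as filled circles and a line of equal change. The list medians lie below the line, by more for cytosolic ribosomal proteins (-0.53 and -1.52) than for replication genes (-2.82 and -3.24).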

How the data were processed

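The series holds 20 SLAM-seq libraries, 18 with 4sU (6 groups of 3) and 2 without. The authors trimmed the reads with Trim Galore, counted them on hg38 3′ UTRs with Slamdunk, left out multimapping and low-quality reads by their methods, and deposited raw counts of reads and T>C reads per transcript, with no normalization. The files still count multimapping reads for some transcripts, and genes with over 20% of these are named as uncertain. Of 97466 transcripts 89088 (91.4%) matched GENCODE release 44, giving 19617 genes, each represented by its transcript with most reads. Libraries held 12440700 to 18729086 reads, and intervals cover counting error only.

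Total reads were tested with edgeR 4.0.16 (R 4.3.3; quasi-likelihood, robust, 1 fit over the 18 libraries, TMM, filterByExpr, Benjamini-Hochberg, adjusted p under 0.05 and over 2-fold). T>C reads used the library sizes and TMM factors of the total reads. TMM factors at 24 h lay between 1.294 and 1.321 for dCBP-30 and between 0.8929 and 0.9344 for DMSO. The Drosophila spike-in was not used here. The test was run on simulated counts with known changes. There as many genes rose as fell and the libraries were otherwise alike in composition, so that check does not bear on the scaling at 24 h.

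The 46 gene lists and the members were chosen with earlier results of these data known. Genes are named by rule: anchors of each list, up to 3 called members per list with the largest change and a mean of at least 50 reads in the higher group, the 10 largest increases and decreases with at least 100 reads, and the 10 largest gains and losses of read share. The 10 largest increases and decreases were taken only from genes in which the groups did not overlap. Motif windows show 2 called members per list with a mean of at least 50 reads in the higher group and 10 reads or more over the lower. Alternatives were library totals alone, DESeq2 1.42.0, other filters, the 24 h libraries alone, a replicate block, reads summed over transcripts, T>C scaling and leaving out each library. A few named genes are not reported here.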

Additional observations from a re-analysis of the deposited data

Results flagged for a closer look

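The change at 24 h differed from that at 2 h or 6 h, by a test of the difference itself, for many genes. Against 2 h it was higher for 1357 genes and lower for 1710, and against 6 h it was higher for 1037 genes and lower for 1190. Each time point has its own DMSO libraries, but both differences share the 24 h libraries.

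For 4 named genes the change was past the threshold in opposite directions at the time points compared and the difference was called. SLC2A3, a glucose transporter, stood 5.22 higher on the log2 scale at 24 h than at 2 h (2.51 after -2.71). NLRC5, the activator of HLA class I genes, stood 2.27 higher at 24 h than at 6 h (1.21 after -1.07). NLRC5 had 6.07, 3.19 and 6.65 RPM under dCBP-30 against 3.30, 1.49 and 2.10 under DMSO at 24 h, so that the groups overlapped. Without DMSO replicate 2 its log2 fold change was 0.97 and without dCBP-30 replicate 3 it was 1.009, neither of them called. DUSP6 stood 3.25 higher than at 2 h and 2.39 higher than at 6 h, with 1.16 at 24 h after -2.10 and -1.23. TXNIP stood 3.71 higher than at 2 h (2.59 after -1.12).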

How the results depend on the processing

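The depth of 13784760 to 18729086 reads leaves genes with few reads uncertain, and the scaling between libraries was the choice that moved most. By library totals alone, without TMM factors, 3689 genes rose and 1061 fell in total reads, and the change at 24 h minus that at 2 h was higher for 2617 genes and lower for 1033. By library totals without IGLL5 and IGLC1, chosen after seeing the data, 2987 rose and 1280 fell. In T>C reads, scaled by the T>C reads 759 rose and 1513 fell, and by library totals without TMM factors 602 rose and 1763 fell. As a median over 3211 genes with at least 50 T>C reads, the share of T>C reads differed by -4.396 percentage points in place of -1.931. The spike-in was not used here, so none of these scales is tied to RNA per cell. Without TMM factors the medians of 13 of 46 lists turned sign, among them ribosomal proteins, oxidative phosphorylation, BCL2 family, p53 targets, actin and solute carriers, while the 1061 genes that fell were all among the 1972, and all of the 1841 rose.

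Leaving out 1 library at a time gave 1734 to 1833 genes higher and 1922 to 1986 lower in total reads, 166 to 187 higher and 2803 to 3167 lower in T>C reads, and a difference in the share of T>C reads at 24 h of -2.173 to -1.699 percentage points. DESeq2 called 1963 and 1982 genes. The replicate block called 1819 and 1968 genes in total reads and 215 and 3122 in T>C reads, and for the change at 24 h minus that at 6 h 1001 and 1164. Same-numbered libraries did not deviate together at 24 h (correlations 0.039, 0.013 and -0.051). This cannot show whether the numbers mark paired cultures, only that no shared deviation was seen. Of 8233 values of named genes under the alternatives, 7879 stayed on their side of the threshold, 242 lost a call, 112 gained one and none that was called turned sign. Of 460 counts of list members 58 moved by over 1.5 times, 51 of them without TMM factors. Without members with an overlapping 3′ UTR or over 20% multimapping reads, 48 of 49 replication genes and 48 of 52 ribosome biogenesis genes fell.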

Other observations

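The genes tested were also split into 5 bins of equal size by their reads under DMSO at 2 h and 6 h. The bin with fewest reads holds genes with 0 to 227 reads there. Such genes could pass the filter on low counts through libraries where they were high. The part of the filter in the median of that bin was not tested. At 24 h the bin with fewest reads had a median log2 fold change in total reads of 1.02 and the bin with most reads one of -0.51, and the bins between them stood in order. In the bin with fewest reads 29.9% of genes rose and 6.48% fell, and in the bin with most reads 1.71% rose and 27.4% fell. The part of read level in the counts and medians of the gene lists was not tested. Split in the same way by the share of T>C reads under DMSO at 2 h and 6 h, over genes with at least 300 reads there, the bins had medians between -0.22 and 0.07. Genes share libraries, so these are descriptions.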
